A study of Macaca nemestrina with 15 samples.

Results

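The genes described here encode subunits of the mitochondrial respiratory chain and of ATP synthase that are made from nuclear DNA. They were chosen by name: every row of the count table whose symbol begins NDUFA, NDUFB, NDUFC, NDUFS or NDUFV followed by a digit (complex I), is SDHA, SDHB, SDHC or SDHD (complex II), begins UQCR (complex III), begins COX4 to COX8 (complex IV) or begins ATP5 (complex V). Of the 28865 features in the table, 55 matched: 30 of complex I, 1 of complex II (*SDHB*), 4 of complex III, 9 of complex IV and 11 of complex V. *NDUFA4L2* carries a complex I name but was counted with complex IV, where its paralog belongs. A filter on low counts kept 12880 features, among them 50 of the 55 genes: all 30 of complex I, *SDHB*, *UQCR10*, *UQCRB*, *UQCRC1*, *UQCRQ*, *COX4I1*, *COX6C*, *COX7A1*, *COX8A* and all 11 of complex V. Genes such as *SDHA*, *UQCRC2* and *COX5A*, and the subunits encoded in mitochondrial DNA, were not analysed here.

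Complex I takes electrons from NADH, complex II takes them from succinate, and both pass them to ubiquinone. Complex III hands them on to cytochrome c, and complex IV gives them to oxygen. Complexes I, III and IV pump protons out of the mitochondrial matrix, and complex V lets them return through its membrane part, Fo, to drive ATP synthesis in its head, F1. Most subunits are nuclear genes, and a few core subunits of complexes I, III, IV and V are encoded in mitochondrial DNA, which nucleoside analogs are known to affect in some tissues. Resting lymphocytes and monocytes use this chain for much of their ATP.

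RNA was measured in the peripheral blood mononuclear cells (PBMCs: blood lymphocytes and monocytes) of 5 female pig-tailed macaques, *Macaca nemestrina*, named Z15228, Z13076, Z15339, Z15303 and Z15408. All 5 received islatravir (ISL), a nucleoside reverse transcriptase translocation inhibitor, by mouth once a week for 12 weeks at 30 mg/kg. Each gave 1 library before the first dose (pre-treatment), 1 at week 12 of dosing and 1 at week 18, after dosing had stopped, 15 libraries in all. No animal was left untreated, so time and treatment cannot be told apart. Per-library values below follow the order in which the animals are named above.

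The libraries held 5610597 to 10379572 counts on genes, and the shallowest were those of Z15303 at weeks 12 and 18. A tested respiratory chain gene had 50 to 6331 counts in a library. Together the 55 genes took 0.518% (Z15408, pre-treatment) to 0.786% (Z15303, week 12) of a library's counts. All 6 T-cell, 6 B-cell, 6 NK-cell and 7 monocyte marker genes had counts in every library. So did all 5 platelet and all 4 dendritic-cell markers. A count above 0 is a low bar at this depth, so it is no check of the PBMC label. Dates in the library names set the second sample of an animal 56 or 57 days after the first and the third 84 days after it, which differs from the labelled weeks. By these dates Z15339, Z15303 and Z15408 were dated together at every time point, while Z15228 and Z13076 each had their own. What the dates record is not stated in the sources used here. The pre-treatment library of Z15408 had a TMM scaling factor of 1.11, against 0.939 to 1.04 in the other 14. Levels are CPM, counts scaled to the size of a library after TMM adjustment. Transcript lengths were not used here, so no gene's level was compared with another gene's. In RNA from mixed cells, fewer cells of a type and less RNA per cell cannot be told apart.

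Between pre-treatment and week 12, the respiratory chain genes as a group showed no change that exceeded the spread between animals. Their summed level was 6062 ± 948 CPM (SD, n = 5) pre-treatment and 6443 ± 1026 at week 12. None of the 50 genes had an adjusted p under 0.05 by the quasi-likelihood test of edgeR, and neither did any other feature (0%). None passed with the animal as a block either, where 1 feature (0.00776%) passed. At an unadjusted p of 0.05 the members also numbered 0, against 207 of all features (1.61%) and, with the block, 604 (4.69%). The median log2 fold change of the 50 genes was 0.09, against 0.00 over all features, and 38 of the 50 had a fold change above 0, against 51% of all features. Single values ran from −0.19 for *NDUFA5* to 0.29 for *ATP5ME*, with standard errors of 0.09 to 0.35. That median was −0.03 without Z15303, 0.02 without Z15408, 0.16 without Z15228 and 0.17 without Z13076.

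At week 18 the summed level was 6572 ± 767 CPM (SD, n = 5). Again 0 of the 50 genes passed edgeR's test against pre-treatment, without the block (0% of all features) or with it (0.00776%). The count at an unadjusted p of 0.05 was likewise 0, against 218 features (1.69%) and, with the block, 754 (5.85%). The median log2 fold change was 0.09 (all features 0.00), with 43 of 50 above 0 against 50.2% of all features, and single values ran from −0.15 for *NDUFA5* to 0.29 for *NDUFS8*. Leaving out 1 animal gave a median of 0.03 (without Z15303) to 0.18 (without Z13076). Against week 12, week 18 gave a median of 0.03 with 35 of 50 above 0 (background 48.9%). That median was −0.00025 without Z15339, 0.0090 without Z13076 and 0.07 without Z15303. In that comparison 0 members passed in edgeR's test without or with the block (0% and 0% of all features), and 0 had an unadjusted p under 0.05 (background 0.505% and, with the block, 2.17%). The 2 comparisons with pre-treatment share their pre-treatment libraries.

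Few genes moved one way in every animal. From pre-treatment to week 12, *NDUFA9* was higher in 5 of 5 animals (1 of 50 genes, background 2.23%), and 0 of 50 were lower in all 5 (background 3.45%). At week 18, *NDUFA9* and *UQCRC1* were higher in 5 of 5 (2 of 50, background 3.04%) and *NDUFA5* was lower in 5 of 5 (1 of 50, background 3.49%). Between weeks 12 and 18, *NDUFB7* and *NDUFS7* were higher in 5 of 5 (2 of 50, background 2.99%), and 0 genes were lower in all (background 2.87%). No gene had all 5 libraries of one time point above or below all 5 pre-treatment libraries. Among all features such separation was found at week 12 in 0.116% (higher) and 0.163% (lower), and at week 18 in 0.132% and 0.202%.

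**Figure D1:**
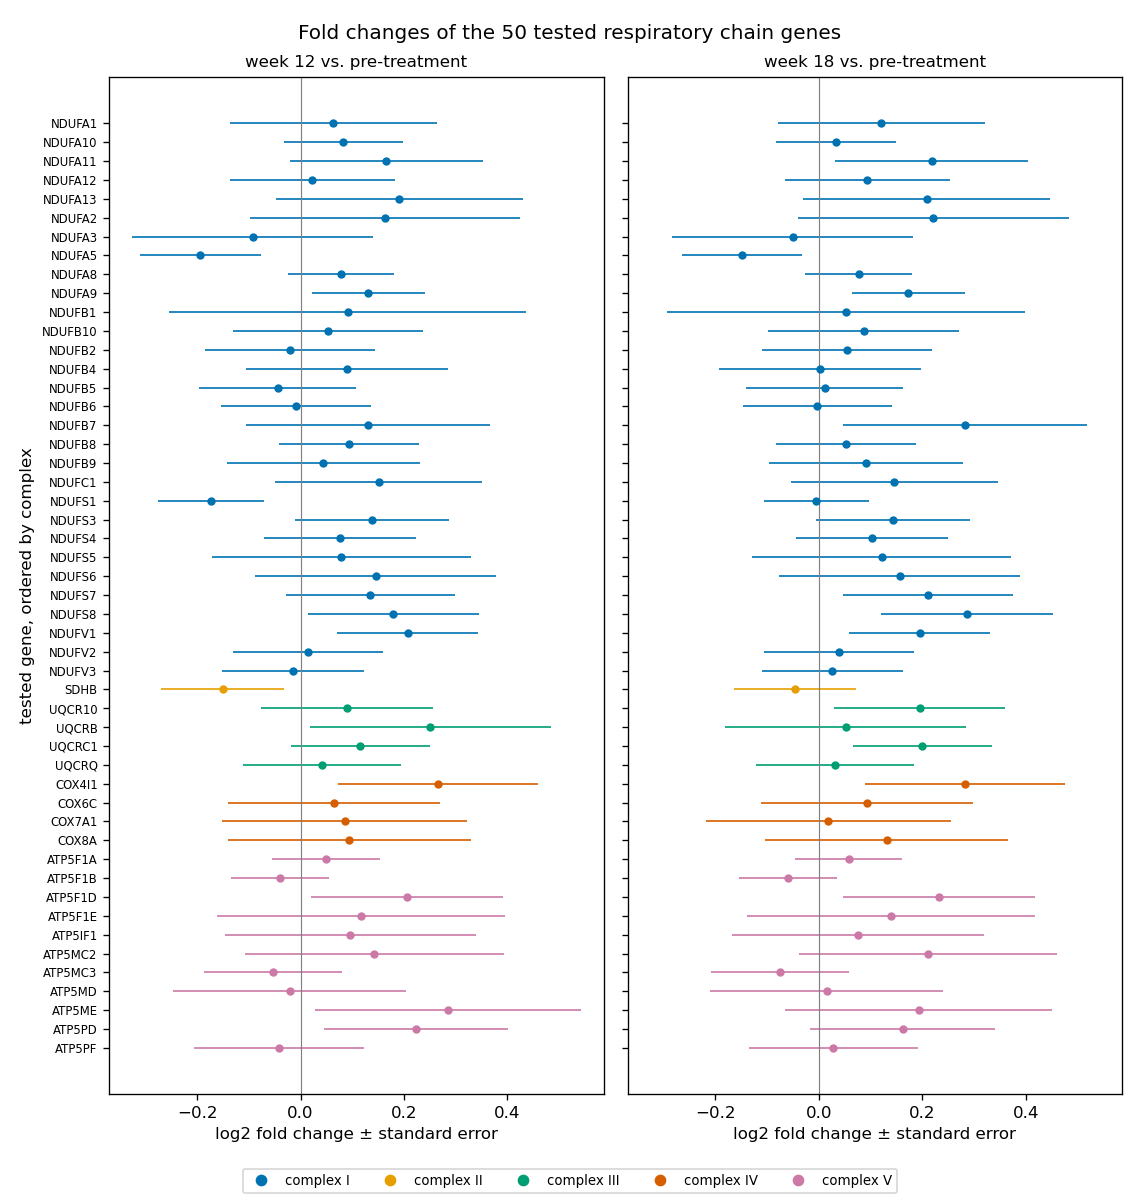
Log2 fold changes (x axis) of the 50 tested genes (y axis, ordered by complex and coloured by it) at week 12 and week 18 against pre-treatment; points are edgeR estimates and bars 1 standard error. Points above 0 number 38 of 50 at week 12 and 43 at week 18, and none exceeds 0.29. Those below 0 in both panels include *NDUFA5*, *SDHB*, *ATP5F1B* and *ATP5MC3*. *NDUFS1* lies at −0.17 at week 12 and next to 0 at week 18.

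All but *NDUFS3* of the 6 tested core subunits of complex I carry the flavin and iron-sulfur clusters that move electrons from NADH to ubiquinone. *NDUFV1*, which binds FMN and takes the electrons from NADH, was at 151, 194, 143, 151 and 110.5 CPM pre-treatment, 152, 157, 179, 206 and 172 at week 12, and 159.7, 154, 183, 194 and 168 at week 18. The groups overlapped, with Z13076 the only animal below its own pre-treatment value (log2 fold change 0.21, SE 0.14, at week 12 and 0.20, SE 0.14, at week 18). *NDUFS8*, an iron-sulfur core subunit, was at 122, 125, 96.3, 109 and 58.3 CPM, then 127, 100.3, 108, 114 and 129, then 147, 115, 116, 118 and 127. Its log2 fold change of 0.29 (SE 0.17) at week 18 was the highest of the 50 genes, and it was 0.13 without Z15408, whose pre-treatment library was the lowest of the 15. *NDUFS7*, the iron-sulfur subunit next to the ubiquinone site, was at 199, 221, 176, 189 and 96.7 CPM, then 195, 173, 186, 218 and 198, then 209, 188, 202, 221 and 201. It too was lowest in the pre-treatment library of Z15408, and its log2 fold change at week 12 was 0.14 (SE 0.16) with that animal and −0.03 without it.

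*NDUFS1*, the largest iron-sulfur subunit, went another way. It was at 54.0, 55.6, 70.0, 62.9 and 57.6 CPM pre-treatment, 53.0, 61.4, 54.9, 51.5 and 45.4 at week 12, and 62.5, 59.8, 58.8, 58.3 and 59.7 at week 18. Week 12 was below pre-treatment in every animal except Z13076 (log2 fold change −0.17, SE 0.10), and week 18 was above week 12 in the same 4 of 5 (0.17, SE 0.10). In edgeR's test these had unadjusted p-values of 0.11 and 0.12 and did not pass. Of the remaining core genes, *NDUFS3*, in the arm that reaches into the matrix, was at 70.7 ± 14.3, 77.9 ± 11.6 and 78.1 ± 10.9 CPM (SD between animals, n = 5) at the 3 time points. The iron-sulfur subunit *NDUFV2* was at 84.6 ± 13.8, 85.6 ± 17.9 and 87.0 ± 8.50. Within animals, *NDUFS3* was lower than pre-treatment in Z15228 and Z13076 at both later time points and higher in Z15339, Z15303 and Z15408.

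The 24 tested supernumerary subunits of complex I surround the core and serve its assembly and stability. *NDUFA9*, at the joint between the complex's arms, was at 117, 120.2, 103, 111 and 84.1 CPM, then 122, 121, 104, 125 and 114, then 118, 130.5, 105, 128 and 121. Week 12 minus pre-treatment was above 0 in every animal but small in 3 of them, at 0.06, 0.0043, 0.01, 0.18 and 0.44 log2 CPM, and edgeR's log2 fold change was 0.13 (SE 0.11). *NDUFA5*, of the matrix arm, was at 28.2, 29.5, 25.2, 26.5 and 26.7 CPM, then 20.6, 24.1, 25.2, 28.6 and 20.9, then 26.7, 25.9, 23.8, 22.0 and 24.4. It was lower in 4 of 5 animals at week 12 (log2 fold change −0.19, SE 0.12) and in 5 of 5 at week 18 (−0.15, SE 0.12), within the overlap of the groups. Over the 24 genes, 18 had a log2 fold change above 0 at week 12 and 21 at week 18.

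In complex II, *SDHB*, the iron-sulfur subunit of succinate dehydrogenase, was at 139, 150.1, 114, 130.2 and 96.0 CPM pre-treatment, 122, 107, 104, 115 and 118 at week 12, and 128, 131, 116, 106 and 128 at week 18. It was lower at week 12 in every animal except Z15408, with a log2 fold change of −0.15 (SE 0.12) at week 12 and −0.05 (SE 0.12) at week 18. *UQCRC1*, a core protein on the matrix side of complex III, was at 495, 555, 462, 436 and 320.2 CPM, then 488, 536, 481, 435 and 517, then 529.9, 573, 476, 453 and 575. All 5 animals were higher at week 18 than pre-treatment, by 0.04 to 0.10 on the log2 scale in 4 of them and by 0.84 in Z15408. Its log2 fold change at week 18 was 0.20 (SE 0.14) and 0.06 without Z15408. The small subunits *UQCR10*, *UQCRB* and *UQCRQ* had log2 fold changes of 0.04 to 0.25 at week 12 and 0.03 to 0.20 at week 18.

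In complex IV, *COX4I1*, the common form of subunit 4, was at 405, 404, 294, 367 and 235 CPM pre-treatment, 401, 306, 355, 579 and 409 at week 12, and 433, 322, 388, 552 and 379 at week 18. Z15339, Z15303 and Z15408 were higher at both later time points and Z13076 was lower at both, with log2 fold changes of 0.27 (SE 0.19) and 0.28 (SE 0.19). Without Z13076 these were 0.42 and 0.43, without Z15303 0.15 and 0.19, and without Z15408 0.16 and 0.21. *COX8A*, the common form of subunit 8, was at 165, 164, 118, 171 and 70.8 CPM, then 138, 107, 130.0, 213 and 146, then 143, 122, 147, 213 and 129. The same 3 animals were higher and the other 2 lower, which left a log2 fold change of 0.09 (SE 0.23) at week 12 and 0.13 (SE 0.23) at week 18. *COX7A1*, known from heart and skeletal muscle, was detected in every library at 8.10 to 23.4 CPM (71 to 176 counts).

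Another 5 genes of complex IV did not pass the filter on low counts. *COX4I2*, the lung form of subunit 4, and *COX7B2*, known from testis, had 0 counts in all 15 libraries, which allows up to 0.0237 CPM over the pooled libraries (3 counts; counting error only). *COX6B2*, also a testis form, had 30 counts in all, 0 to 8 per library. *COX6A2*, the heart and muscle form of subunit 6A, had 71 counts in all, 0 to 17 per library, and the week 12 library of Z15303 held 17 of them. *NDUFA4L2*, a paralog known to be induced by low oxygen, had 9 counts in 6 libraries. None of these was tested.

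In complex V the large head subunits had small spreads. *ATP5F1B*, the catalytic beta subunit, was at 540.2, 515, 531, 486 and 437 CPM pre-treatment, 485, 471, 479, 474 and 531 at week 12, and 474, 478, 489, 441 and 527 at week 18. All animals but Z15408 were lower at both later time points, and the log2 fold changes were −0.04 (SE 0.09) and −0.06 (SE 0.09). *ATP5F1A*, the alpha subunit, was at 544 ± 43.1, 563 ± 47.4 and 566 ± 52.2 CPM (SD, n = 5). *ATP5F1D*, the delta subunit of the central stalk, was at 136, 136, 108, 124 and 67.0 CPM, then 135, 87.2, 135, 156 and 145, then 127, 117, 131, 164 and 131. Its log2 fold change was 0.21 (SE 0.19) at week 12 and 0.03 without Z15408.

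*ATP5F1E*, the epsilon subunit of the same stalk, was at 349.9, 323, 218, 315 and 271 CPM pre-treatment, 296, 221, 244, 594 and 249 at week 12, and 302, 247, 296, 554 and 228 at week 18. Z15303 stood alone at both later time points, and the log2 fold change of 0.12 (SE 0.28) at week 12 was −0.19 without that animal. *ATP5MC2*, a gene for the c ring through which protons pass, was at 195, 167, 125, 172 and 93.3 CPM, then 172, 108, 152, 258 and 142, then 177, 118, 182, 256 and 138. Its sister gene *ATP5MC3*, which encodes the same mature protein, was at 118, 119, 102, 98.5 and 73.1 CPM, then 107, 77.7, 99.7, 112 and 96.2, then 98.9, 86.5, 104, 99.1 and 96.2. The log2 fold changes at week 12 were 0.14 (SE 0.25) for *ATP5MC2* and −0.05 (SE 0.13) for *ATP5MC3*. *ATP5IF1*, the inhibitor that blocks the enzyme from running in reverse, was at 53.6 ± 13.6, 57.5 ± 18.8 and 56.7 ± 17.6 CPM (SD, n = 5), and *ATP5PD* of the peripheral stalk at 76.5 ± 12.0, 89.4 ± 23.5 and 85.7 ± 17.6.

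The group values held opposite differences within animals. Against pre-treatment, the animals divided in the same way as by the dates they shared. The pre-treatment share of counts taken by the 55 genes was 0.657%, 0.660%, 0.576%, 0.617% and 0.518%. It was thus highest in the 2 animals whose medians were lower later, and its part in the division was not tested. From pre-treatment to week 12 the median change of the 50 genes was −0.15 log2 CPM in Z15228 and −0.37 in Z13076, but 0.13 in Z15339, 0.37 in Z15303 and 0.37 in Z15408. At week 18 it was −0.09 and −0.22 in the first 2 animals, and 0.25, 0.31 and 0.31 in the other 3. Genes higher at week 12 numbered 8 of 50 in Z15228 (background 48.9%), 3 in Z13076 (51.2%), 39 in Z15339 (50.2%), 45 in Z15303 (48.8%) and 42 in Z15408 (47.3%). At week 18 they numbered 11 (background 48.6%), 5 (51.9%), 45 (50.1%), 45 (49.8%) and 40 (46.9%). Genes higher in all 3 animals of shared dates and lower in both others made up 26 of 50 at week 12 (7.58% of all features) and 27 at week 18 (7.78%). From week 12 to week 18 the medians were 0.06, 0.12, 0.15, −0.07 and −0.03, which did not divide by the shared dates.

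**Figure D2:**
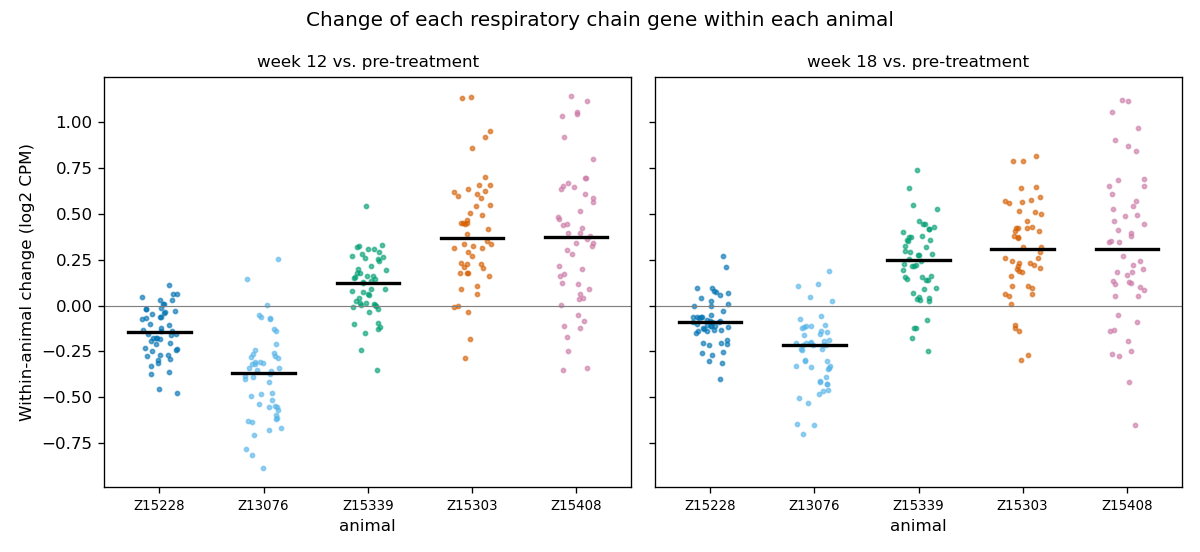
Change of each of the 50 tested genes within each animal (y axis, log2 CPM, later minus pre-treatment) at week 12 (left) and week 18 (right); dots are genes and black bars the median of the 50. The bars of Z15228 and Z13076 lie below 0 (−0.15 and −0.37 at week 12), and those of Z15339, Z15303 and Z15408 above it (0.13, 0.37 and 0.37).

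Each complex with more than 1 tested gene showed this division. At week 12 the median within-animal changes were −0.14, −0.32, 0.09, 0.32 and 0.38 log2 CPM for complex I, and −0.09, −0.41, 0.17, 0.46 and 0.30 for complex III. For complex IV they were −0.21, −0.53, 0.21, 0.63 and 0.75, and for complex V −0.14, −0.56, 0.16, 0.58 and 0.36. With libraries scaled by total counts, without TMM, the median of all features at week 12 moved to 0.11 in Z15228 and −0.16 in Z15408. Relative to it the members were still lower in Z15228, but their own median there was −0.03 at week 12 and 0.02 at week 18, and that of complex III 0.03 at week 12. The medians of the 50 genes in the other 4 animals kept their signs under that scaling, at −0.33, 0.06, 0.35 and 0.24 at week 12.

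**Figure D3:**
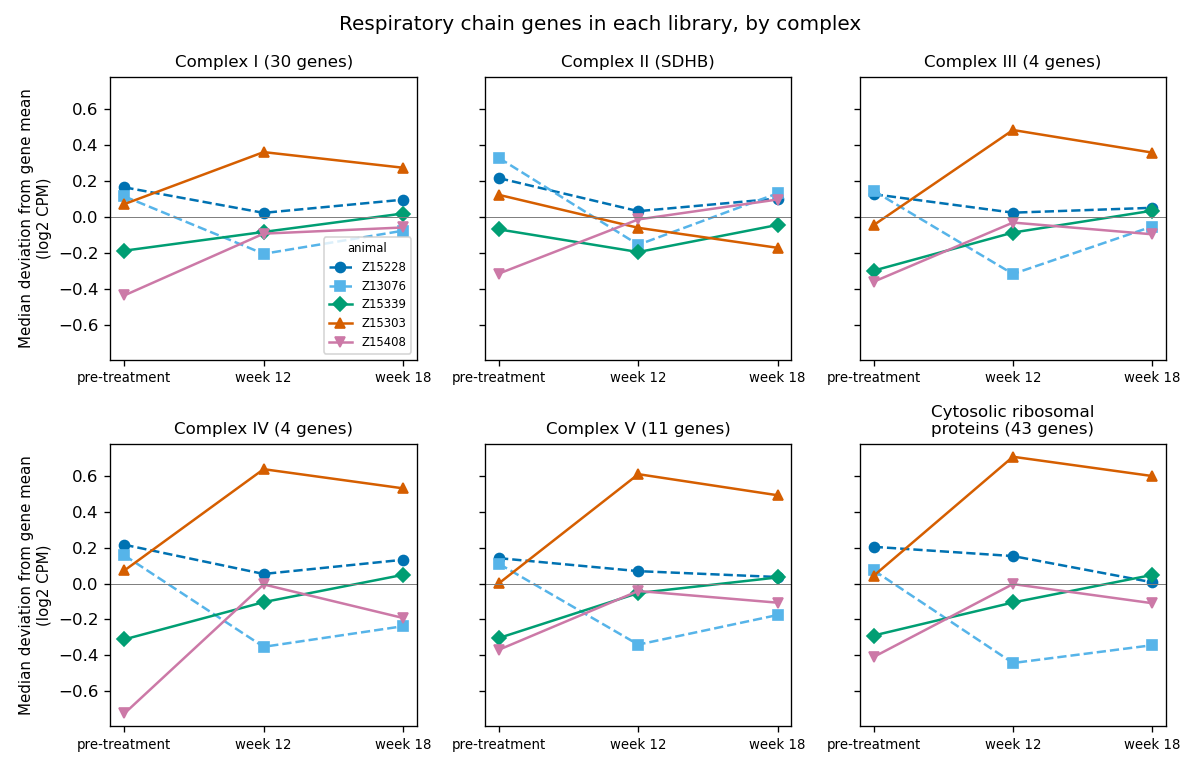
Median deviation of each complex's tested genes from their mean over the 15 libraries (y axis, log2 CPM) at the 3 time points (x axis), 1 line per animal, with the 43 tested cytosolic ribosomal protein genes for comparison; dashed lines are Z15228 and Z13076. For the 4 genes of complex IV the spread ran from −0.72 (Z15408, pre-treatment) to 0.64 (Z15303, week 12), and the dashed lines go down from pre-treatment to week 12 where the solid lines go up, except in complex II (*SDHB*).

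The difference between the 3 animals and the other 2 was fitted gene by gene in edgeR, with animal, time point and their shared-date group, a test chosen after the division had been seen. The division was read from the same values of the same genes. The counts below therefore follow in part from that choice and are not support for the division. At week 12 the difference was above 0 for 49 of the 50 genes (49.6% of all features), with a median of 0.57 on the log2 scale, and at week 18 for 47 (49.6%), with a median of 0.48. None passed an adjusted p of 0.05 (0.0155% of all features at week 12 and 0% at week 18). The smallest adjusted p was 0.0525 at week 12 and 0.0820 at week 18, both for *ATP5MC2*, whose difference was 0.90 (SE 0.19) and 0.89 (SE 0.19). An unadjusted p under 0.05 was reached by 34 of 50 genes at week 12, against 18.5% of all features, and by 29 at week 18, against 16.5%. Shared dates, pre-treatment levels and the animals themselves cannot be told apart here.

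Ribosomal protein genes showed the same division of animals at weeks 12 and 18, which was not tested. The 43 tested cytosolic ribosomal protein genes had median changes at week 12 of −0.07, −0.51, 0.19, 0.69 and 0.37 log2 CPM, in the same order of animals. For the 63 mitochondrial ribosomal protein genes these were −0.08, −0.08, 0.06, 0.23 and 0.37. At week 18 the medians were −0.20, −0.43, 0.38, 0.58 and 0.30 for the cytosolic genes. They were −0.06, −0.10, 0.12, 0.21 and 0.35 for the mitochondrial ones. The 47 tested assembly factors of the respiratory chain, of 56 listed, had −0.16, −0.0047, 0.02, 0.21 and 0.07 at week 12, with the same signs. At week 18 their median in Z13076 was 0.02, so the signs differed there. At week 12 the 12 tested enzymes of the TCA cycle, which feeds complexes I and II, had −0.03, −0.04, −3.8e-05, −0.21 and −0.03, and 14 glycolysis genes 0.08, −0.25, 0.15, −0.15 and 0.17. In these 5 groups 0 genes passed edgeR's test at either later time point. At an unadjusted p under 0.05 there were 1 mitochondrial ribosomal protein gene and 2 assembly factors at week 12 (1.61% of all features) and 1 mitochondrial ribosomal protein gene at week 18 (1.69%). With the block there were 3 mitochondrial ribosomal protein genes, 3 assembly factors and 1 cytosolic ribosomal protein gene at week 12 (4.69%), and 4 mitochondrial ribosomal protein genes and 3 assembly factors at week 18 (5.85%).

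Among 11 tested transcription factors and coactivators of mitochondrial genes, such as *NRF1*, *GABPA*, *ESRRA* and *TFAM*, 0 passed edgeR's test in either direction at week 12 or week 18, and 0 had an unadjusted p under 0.05. *TFAM*, a transcription factor that also packs mitochondrial DNA, had a log2 fold change of 0.13 (SE 0.21) at week 12, and *PPARGC1B*, a coactivator of mitochondrial biogenesis, −0.55 (SE 0.29). Of 8 tested genes for other subunits and electron carriers, 0 passed (0 at week 12 and 1 at week 18 at an unadjusted p under 0.05). *CYC1*, the heme subunit of complex III, had a log2 fold change of 0.06 (SE 0.12) at week 12, and *NDUFAB1*, the acyl carrier subunit of complex I, 0.12 (SE 0.18).

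Levels of cell markers also varied, and their part in these results was not tested. None of the B-cell, monocyte, NK-cell, T-cell and platelet markers passed edgeR's test at week 12 or week 18, without or with the block. All 6 B-cell markers were lower than pre-treatment in 5 of 5 animals at week 12 (background 3.45%) and at week 18 (3.49%). The median log2 fold changes of these 6 were −0.92 and −0.97. Their smallest adjusted p in edgeR's test with the block was 0.077 at week 12 and 0.053 at week 18. Their summed level was 228 to 966 CPM pre-treatment, 129 to 486 at week 12 and 164 to 405 at week 18. The 7 monocyte markers summed to 1916 to 3908, 1977 to 3364 and 2339 to 5140 CPM, and their median change was −0.30, −0.91, 0.28, −0.14 and 0.02 log2 CPM at week 12. At week 18 it was 0.68, 0.40, 0.57, −0.15 and 0.22. The 6 NK-cell and cytotoxic markers had median changes of −0.10, 0.17, 0.41, −0.14 and 0.80 at week 12 and −0.35, −0.48, 0.03, −0.13 and 0.76 at week 18, at 3288 to 7305, 4277 to 9809 and 4375 to 7470 CPM in sum. For the 6 T-cell markers they were 0.15, 0.17, 0.03, 0.14 and 0.32 at week 12 and −0.11, −0.06, 0.18, 0.18 and 0.39 at week 18, at 1316 to 1968, 1591 to 2087 and 1724 to 1884 CPM in sum. The 5 platelet markers had median changes of −1.22, 1.13, 0.32, 0.19 and 0.10 at week 12 and −0.49, 0.38, 0.18, 0.61 and −0.08 at week 18. They summed to 3319 to 6757, 2886 to 8132 and 2699 to 9785 CPM. No listed marker present in the table was at 0 in every library.

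The largest single changes in Z15408 and Z15303 were of different genes. These genes were picked as the 5 highest of each animal after their values were seen, so smaller values in the other animal follow in part from the choice. In Z15408 the largest week 12 changes were 1.14 log2 CPM for *NDUFS8*, 1.11 for *ATP5F1D*, 1.06 for the membrane-arm subunit *NDUFB7*, 1.04 for *COX8A* and 1.03 for *NDUFS7*. The same genes changed by 0.06, 0.33, 0.51, 0.32 and 0.20 in Z15303. There the largest changes were 1.14 for *UQCRB*, 1.13 for the Fo subunit *ATP5ME*, 0.95 for *NDUFA13*, 0.92 for *ATP5F1E* and 0.86 for *NDUFB1*, which in Z15408 were at 0.01, 0.36, 0.04, −0.12 and −0.08. Depth was lower in the later libraries of Z15303 and the pre-treatment library of Z15408 had the highest TMM factor, and the part of either was not tested. Leaving out the later libraries of Z15303 gave a median log2 fold change of the 50 genes of −0.06 at week 12, and leaving out the pre-treatment library of Z15408 gave 0.00.

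More of the genes differed between animals than between time points. In edgeR's test of the animal terms, 21 of the 50 genes (42%) passed an adjusted p of 0.05, against 30.9% of all features. In other groups 28 of 43 cytosolic ribosomal protein genes and 8 of 14 glycolysis genes passed. So did 6 of 63 mitochondrial ribosomal protein genes, 10 of 47 assembly factors and 3 of 12 TCA cycle enzymes. The median range of the animals' means was 0.54 log2 CPM for the 50 genes and 0.60 for all features. The 21 genes were 12 of the 30 genes of complex I, 1 of 4 of complex III (*UQCR10*), 1 of 4 of complex IV (*COX6C*) and 7 of 11 of complex V. Within complex I, all 12 were supernumerary (of 24), and 0 of the 6 core genes passed. Z15303 had the highest mean over its 3 libraries for 35 of the 50 genes (background 28.5%), and Z15408 the lowest for 33 (background 20.2%). Without Z15303 the count was 1 of 50, while 17.7% of all features passed, and without Z15408 it was 13, while 25% passed. With libraries scaled by total counts, without TMM, the count was 15 of 50, near the 30.4% of all features. It was 21 with the size factors of DESeq2 (30.8% of all features) and 27 without a filter on low counts (25.4%). With the likelihood-ratio test of DESeq2 it was 25 (37.3%). The excess over all features thus depended on the scaling and on single animals.

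*NDUFA2*, a subunit of the NADH end of complex I, had the smallest p of these. It was at 257, 168, 149, 222 and 127 CPM pre-treatment, 238, 119.6, 164, 313 and 200.1 at week 12, and 267, 142, 194, 299 and 175 at week 18. Z15228 and Z15303 were above the other 3 animals at each time point. *NDUFB1*, of the membrane arm, was at 38.7, 42.8, 30.2, 46.4 and 34.4 CPM, then 32.1, 24.8, 32.9, 84.1 and 32.4, then 36.4, 27.2, 35.2, 80.2 and 21.8. *NDUFS5*, also of the membrane arm, was at 78.9, 77.3, 64.6, 76.2 and 45.4 CPM, then 64.1, 53.2, 64.7, 124 and 56.9, then 63.8, 67.0, 71.1, 119 and 52.1. For both, the later libraries of Z15303 stood above all others, while its pre-treatment library did so for *NDUFB1* among pre-treatment libraries and not for *NDUFS5*. The adjusted p in edgeR's test of animals was 0.0012 for *NDUFA2*, 0.0019 for *NDUFB1*, 0.0037 for *NDUFS5* and 0.0052 for *ATP5F1E*.

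**Figure D4:**
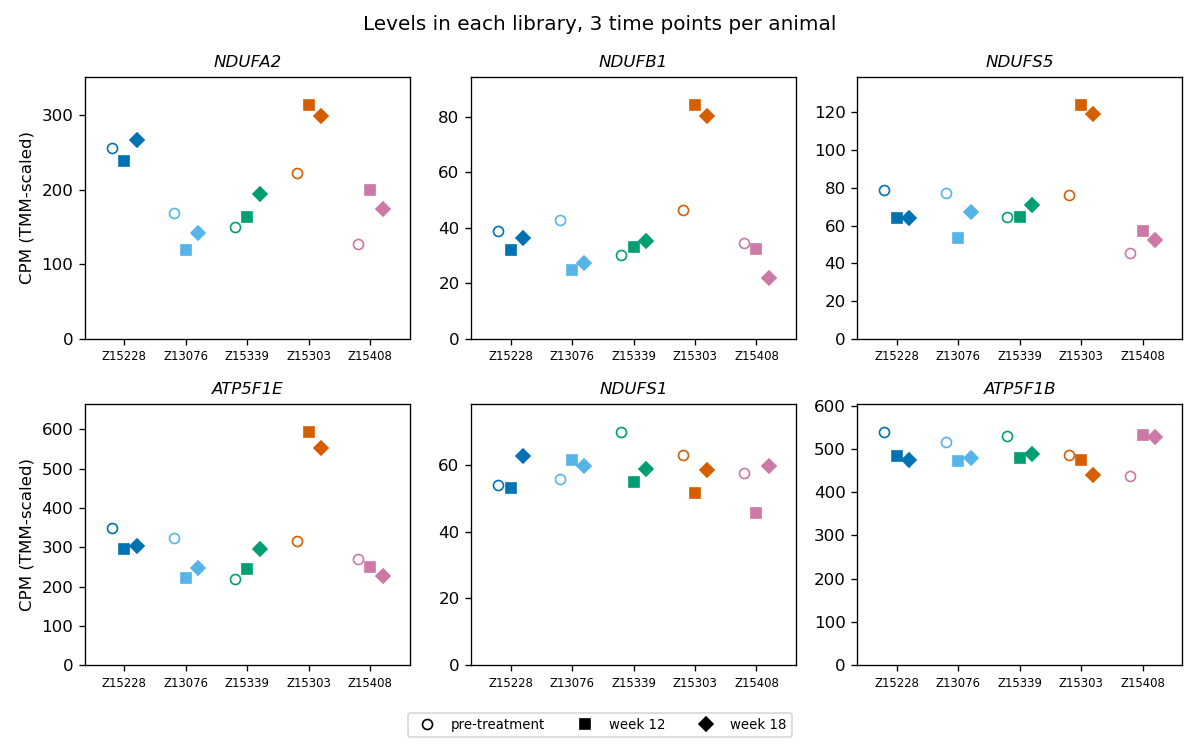
Level of 6 genes in each library (y axis, CPM in TMM-scaled libraries, from 0) by animal (x axis); open circles are pre-treatment, squares week 12 and diamonds week 18. *NDUFA2*, *NDUFB1*, *NDUFS5* and *ATP5F1E* reach their highest levels in the later libraries of Z15303 (313, 84.1, 124 and 594 CPM at week 12), while *NDUFS1* and *ATP5F1B* stay between 45.4 and 70.0 and between 437 and 540.2 CPM.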

How the data were processed

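PBMC RNA of 5 macaques was sequenced at 3 time points (15 libraries). The authors made libraries with SMART-Seq v4 and Nextera XT, aligned reads with STAR 2.7.9a to the Ensembl *M. nemestrina* genome, and deposited raw read counts per gene, without normalization. STAR's gene counts take uniquely mapped reads, so reads shared with a near-identical copy (many of these genes have processed pseudogenes) may be missing. Groups and animals came from the labels. The count table was analysed in R 4.3.3 with edgeR 4.0.16 (quasi-likelihood F test, TMM, filterByExpr with a minimum count of 10, time point as the only term) over all 12880 features passing the filter, with Benjamini-Hochberg adjustment and a threshold of 0.05. A standard error is the size of a log2 fold change over the root of its F value. The log2 CPM used a prior count of 2. The animal was also fitted as a block, since same-numbered libraries are from the same animal by their labels. Deviations from group means correlated at 0.551 on average over 15 same-animal pairs (0.351 to 0.683). Over 60 pairs of different animals and time points the mean was −0.137. Subtracting the mean of the same 5 animals pushes that value below 0, so it is no separate check of the pairing. Scripts were tested on simulated data.

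The members and gene lists were chosen with earlier results of these data known. Genes were named by role, as isoforms, by an adjusted p under 0.05 between time points, by the smallest p per complex with the block, by moving the same way in 5 of 5 animals, or as the 6 smallest p between animals, and any others are said to be picked after their values were seen or were named as examples of a list. Alternatives were DESeq2 1.42.0 (Wald test, size factors), limma 3.58.1 (voom), scaling by library size alone, other count filters, the block, and each animal left out. The date-group fit and the omission of single libraries were chosen after seeing the data. No coordinates, transcript lengths or sequences were used here. Intervals and floors cover counting error only.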

Additional observations from a re-analysis of the deposited data

Results flagged for a closer look

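Single libraries lay far from the other 4 of their time point by Dixon's test in 11 of 114 groups of 5 values, where chance alone flags about 1 in 20. Of the 11, 8 were of genes named for having the smallest p between animals, so the share cannot be read against chance. In 10 of the 11 the library was from Z15303 and was the highest. At week 12 these were *ATP5F1E* at 594 CPM (the other 4 at 221 to 296), *NDUFB1* at 84.1 (24.8 to 32.9), *NDUFS5* at 124 (53.2 to 64.7), *NDUFA1* at 245 (135 to 159), *ATP5MD* at 57.6 (26.2 to 33.2) and *COX7A1* at 23.4 (11.3 to 14.7). At week 18 they were *ATP5F1E* at 554 (228 to 302), *NDUFB1* at 80.2 (21.8 to 36.4), *NDUFS5* at 119 (52.1 to 71.1) and *COX8A* at 213 (122 to 147). The remaining one was *ATP5F1B* at week 12, at 531 CPM in Z15408 against 471 to 485 in the others. The later libraries of Z15303 were the shallowest, and the part of depth in this was not tested.

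Against pre-treatment, the medians of the animals of shared dates (Z15339, Z15303, Z15408) and of the other 2 moved in opposite directions, every animal of each with its own group. The mean of the animals' median changes differed by 0.54 log2 CPM for the 50 genes at week 12 and by 0.44 at week 18. For complex I the difference was 0.49 and 0.39, for complex III 0.56 and 0.42, for complex IV 0.90 and 0.72, and for complex V 0.72 and 0.58. These differences of medians were not tested. The single genes were, in an edgeR fit chosen after the division was seen. There 0 of 50 had an adjusted p under 0.05 at week 12 or week 18 (0.0155% and 0% of all features). At an unadjusted p under 0.05 there were 34 and 29, against 18.5% and 16.5% of all features. The latter counts follow in part from that choice. With libraries scaled by total counts the medians in Z15228 were near 0 (−0.03 at week 12 and 0.02 at week 18), while relative to the median of all features they were −0.13 and −0.075 (−0.14 and −0.078 with TMM).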

How the results depend on the processing

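The count of genes passing between time points was 0 of 50 under each alternative run. Replicate numbers stand for animals, and the replicate block changed no call of a respiratory chain gene. With it, 1 feature of all passed at week 12 and 1 at week 18. All features passing at week 12 numbered 1 with DESeq2 and 27 with DESeq2 and the block, and at week 18 43 with DESeq2 and the block (17 with edgeR and the block without the pre-treatment library of Z15408). Between weeks 12 and 18, 1 passed with DESeq2 and the block. Leaving out 1 animal, without or with the block, gave 0 to 6 at week 12 and 0 to 17 at week 18. In the test between animals it gave 1 to 28 of the 50 genes and 2284 to 4291 features, the lowest of both without Z15303. Within-animal medians (log2 CPM) were also averaged over Z15228 and Z13076 alone. At week 12 this mean was −0.26 for the 50 genes, −0.23 for complex I and −0.25 for complex III, and at week 18 −0.14 for complex I. Over Z15339, Z15303 and Z15408 the same means were 0.29, 0.26 and 0.31 at week 12 and 0.25 at week 18.

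Signs of single log2 fold changes, none of which passed, were less stable. Leaving out 1 animal, without or with the block, reversed 14 named genes at week 12. Their ranges were −0.19 to 0.26 for *ATP5F1E*, −0.061 to 0.30 for *ATP5IF1*, −0.0068 to 0.31 for *ATP5MC2*, −0.15 to 0.093 for *ATP5MC3*, −0.25 to 0.11 for *ATP5MD*, −0.099 to 0.24 for *COX7A1* and −0.11 to 0.30 for *COX8A*. They were −0.060 to 0.17 for *NDUFA1*, −0.25 to 0.27 for *NDUFB1*, −0.15 to 0.22 for *NDUFS5*, −0.029 to 0.30 for *NDUFS7*, −0.0089 to 0.34 for *NDUFS8*, −0.070 to 0.11 for *NDUFV2* and −0.0050 to 0.17 for *UQCRC1*. At week 18 they were −0.11 to 0.26 for *ATP5F1E*, −0.079 to 0.26 for *ATP5IF1*, −0.17 to 0.041 for *ATP5MC3*, −0.14 to 0.11 for *ATP5MD*, −0.067 to 0.17 for *COX7A1*, −0.011 to 0.30 for *COX8A*, −0.29 to 0.20 for *NDUFB1*, −0.048 to 0.065 for *NDUFS1*, −0.061 to 0.24 for *NDUFS5*, −0.016 to 0.11 for *NDUFV2* and −0.15 to 0.030 for *SDHB*. With all animals, *NDUFB1* turned negative with the block (−0.048 at week 12, −0.091 at week 18), with DESeq2 and the block (−0.046 and −0.092) and with voom (−0.080 and −0.12). At week 18 *ATP5MD* turned negative with the block (−0.022), by library size (−0.0026), with DESeq2 and the block (−0.018) and with voom (−0.035). *NDUFS1* turned positive there without a filter (0.0046), with DESeq2 (0.00020), with DESeq2 and the block (0.0038) and with voom (0.0027). The cause was not tested. The tested gene of lowest count, *NDUFA13*, had 50 to 119 counts in a library, and its counting error was the widest.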
